A study of Mus musculus with 2 samples.

Results

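The genes examined here encode the core of Polycomb repressive complex 2 (PRC2) and the LSD1-CoREST complex together with the repressor that recruits it, in cells of small cell lung cancer (SCLC). They were 10 genes chosen by name, of 27998 identifiers that both count tables list. *Ezh2*, *Eed*, *Suz12* and *Jarid2* stand for PRC2, *Kdm1a* (which encodes LSD1), *Rcor1*, *Rcor2*, *Hdac1* and *Hdac2* for LSD1-CoREST, and *Rest* for itself. All 10 symbols were found, each for 1 identifier. The cells came from 2 triple-knockout (TKO) mice with the genotype label Rb-/-; Trp53-/-; Rbl2-/-, which also carried a Rosa26 membrane-Tomato/membrane-GFP reporter allele (the label of TKO1 ends in extra characters that could not be read), with 129/SvOla, 129/SVJ and C57BL/6 ancestry. The paper describes the 3 genes as floxed and deleted in lung cells through Cre. Cells that Cre did not reach need not carry the deletions. Both mice were 8-9 months old, both had received Adeno-CMV-cre 7 months before the harvest, and neither tumor has an untreated or unmutated counterpart among the samples. The CMV promoter is active in many cell types, so the deletions were not restricted to 1 kind of infected lung cell. A single tumor was taken from each mouse, live cells were sorted as DAPI-negative, and each tumor (TKO1 and TKO2) gave 1 single-cell RNA sequencing library on the 10x Chromium system.

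PRC2 silences genes by placing methyl groups on histone H3 (the H3K27me3 mark). EZH2 is its catalytic subunit, EED reads the mark and stimulates the enzyme, SUZ12 holds the complex together, and JARID2 is an accessory subunit that helps it bind chromatin. LSD1 removes methyl groups from lysine 4 of the same histone and works with the scaffold proteins RCOR1 or RCOR2 and the histone deacetylases HDAC1 and HDAC2. The zinc finger protein REST binds neuronal genes in non-neuronal cells and recruits CoREST to keep them off, and low REST is a known feature of neuroendocrine cells. EZH2 and LSD1 are both targets of inhibitors studied in SCLC.

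Counts are unique molecular identifiers (UMIs), each standing for 1 captured transcript molecule. Barcodes with more than 500 detected genes and under 10% mitochondrial UMIs numbered 3193 in TKO1 and 3568 in TKO2, with medians of 1223 and 1960 UMIs. Clustering without the 10 genes, followed by naming from marker lists, gave 2991 neuroendocrine-like cells in TKO1 and 3382 in TKO2, called tumor cells below, with totals of 4228468 and 7761159 UMIs. It also gave 97 and 121 macrophage-like cells and, in TKO1, 105 club-like cells, the secretory cells of the airway. A cluster of 65 cells in TKO2 carried 8 club and 11 neuroendocrine markers and was left unnamed. In TKO1, neuroendocrine-like cluster 4 (375 cells) also had 4 ciliated cell markers at least 4-fold above the other cells, and the fibroblast marker *Dcn* was among the leading genes of cluster 3 (387 cells). Both stayed among the tumor cells, and values without them are given where they change a call. Defining markers of macrophages were nearly absent from the tumor cells, where the 14 genes of that list summed to 41.1 CPM (UMIs per 1000000 UMIs of the class) in TKO1 and 14.4 CPM in TKO2. In tumor cells, 10.6% of UMIs in TKO1 and 23.0% in TKO2 came from ribosomal protein genes. An alternative left these and the mitochondrial genes out of the totals. That shifts all log2 CPM ratios between the tumors by the same amount and leaves ratios relative to all genes, described below, unchanged. Any other part of this gap in the results was not tested. The libraries shared 11 of the retained barcodes, and 0 of those belonged to macrophage-like cells.

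Levels are CPM of UMIs summed over a class of cells, with exact Poisson 95% intervals, and ratios have exact conditional binomial 95% intervals. With 1 library per tumor, no spread between animals exists, no test was possible, and every interval covers counting error only. Whether a gene differs by tumor, by mouse or by library therefore cannot be told apart. Because reads were taken from transcript ends without length scaling, levels are compared between groups of cells for 1 gene and not between genes. The median gene had a log2 CPM ratio of 0.37 (TKO1 over TKO2, 12927 genes with at least 10 UMIs), so ratios are also given relative to all genes, by subtracting that median. A gene is called here where it differed by at least 2-fold on that relative scale.

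Of the 9 genes with at least 10 UMIs, *Kdm1a* and *Hdac1* were at least 2-fold higher in the tumor cells of TKO1, *Ezh2* and *Rcor2* were at least 2-fold higher in those of TKO2, and 5 lay between. Among all genes, 23.2% were called in the direction of TKO1 and 18.7% in the direction of TKO2, and 19.8% and 16.2% among genes with at least 50 UMIs, so the counts of 2 and 2 of 9 are near the background and are not a result about the group. The values of single genes are given in the order of their roles.

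Of the 4 PRC2 genes of the group, *Ezh2* reached 2-fold on the relative scale and *Eed*, *Suz12* and *Jarid2* did not. *Ezh2* (ENSMUSG00000029687, GRCm38 chr6:47530139-47595341, minus strand) had 84.9 CPM (76.3 to 94.2, 359 UMIs) in TKO1 and 144 CPM (136 to 153, 1120 UMIs) in TKO2. It was 1.70-fold higher in TKO2 by CPM and 2.19-fold higher relative to all genes, where the log2 ratio of TKO1 over TKO2 was -1.13. Without TKO1 clusters 3 and 4 the relative log2 ratio was -0.94, and in cells with more than 1000 detected genes it was -0.71, so the 2-fold call did not hold in either setting while the direction did. In the latter setting the naming rule left 564 cells of TKO2 unnamed, beside 1228 tumor cells. The set of cells compared thus changed as well as their depth.

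*Eed* (ENSMUSG00000030619, chr7:89954654-89980983, minus strand) had 91.3 CPM (82.4 to 101) in TKO1 and 82.8 CPM (76.6 to 89.5) in TKO2. *Suz12* (ENSMUSG00000017548, chr11:79993106-80034123, plus strand) had 73.8 CPM (65.8 to 82.4) and 57.3 CPM (52.1 to 62.9). *Jarid2* (ENSMUSG00000038518, chr13:44729474-44921643, plus strand) had 26.7 CPM (22.0 to 32.1) and 22.8 CPM (19.6 to 26.4). These 3 genes were slightly higher in TKO1 by CPM, with log2 ratios of 0.14, 0.36 and 0.23, and at or below 0 relative to all genes, with -0.23, -0.00 and -0.14, so neither tumor can be named as the higher one.

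The promoters of *Ezh2* and *Suz12* are shown because each holds a match to the consensus of the E2F factors, which the Rb family restrains. The search covered TTTCCCGC, TTTCGCGC, TTTGCCGC and TTTGGCGC on both strands, from 250 bases before to 50 after each start site in RefSeq's GRCm38.p6 annotation. Of the 8 genes of the group with a RefSeq promoter, 2 held a match, and 744 of all 32851 promoters (2.26%) did. The match, in capitals, began at base 4 of the RefSeq transcript of *Ezh2* (chr6:47595020-47595119, minus strand) and 219 bases before the start of *Suz12* (chr11:79992856-79992955, plus strand). The RefSeq start of *Ezh2* lies inside the gene span given above, which came from GENCODE. A match to these letters is a description of the sequence and was not tested as a binding site.

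Ezh2: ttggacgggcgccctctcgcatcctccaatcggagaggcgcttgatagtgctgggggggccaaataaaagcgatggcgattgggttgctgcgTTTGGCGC

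Suz12: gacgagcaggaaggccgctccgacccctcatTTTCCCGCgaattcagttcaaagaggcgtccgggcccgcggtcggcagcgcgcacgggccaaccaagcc

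Of the 5 LSD1-CoREST genes, *Kdm1a*, *Hdac1* and *Rcor2* reached 2-fold, and the deacetylases *Hdac1* and *Hdac2* differed in opposite directions. *Kdm1a* (ENSMUSG00000036940, chr4:136550540-136602723, minus strand) had 237 CPM (223 to 253, 1004 UMIs) in TKO1 and 82.2 CPM (75.9 to 88.8, 638 UMIs) in TKO2. This was 2.89-fold higher in TKO1 by CPM and 2.24-fold higher relative to all genes. *Hdac1* (ENSMUSG00000028800, chr4:129516104-129542713, minus strand), one of the deacetylases, had 163 CPM (151 to 176, 689 UMIs) and 46.5 CPM (41.8 to 51.6, 361 UMIs), 3.50-fold and 2.71-fold higher in TKO1 on the same scales. Its close relative *Hdac2* (ENSMUSG00000019777, chr10:36974544-37001889, plus strand) went the other way, with 236 CPM (221 to 251, 997 UMIs) in TKO1 and 361 CPM (348 to 375, 2805 UMIs) in TKO2. The relative log2 ratio of *Hdac2* was -0.98, just inside 2-fold.

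Of the CoREST scaffolds, *Rcor2* differed between the tumors and *Rcor1* was not called. *Rcor2* (ENSMUSG00000024968, chr19:7267325-7275225, plus strand), the scaffold known from neural progenitors and stem cells, had 15.4 CPM (11.9 to 19.6, 65 UMIs) in TKO1 and 88.0 CPM (81.5 to 94.9, 683 UMIs) in TKO2. It had the largest difference of the 9 genes, 5.72-fold by CPM and 7.39-fold relative to all genes, with an interval of the relative log2 ratio from -3.28 to -2.52. *Rcor1* (ENSMUSG00000037896, chr12:111039351-111115901, plus strand), the broadly expressed scaffold, had 18.7 CPM (14.8 to 23.3, 79 UMIs) and 12.8 CPM (10.4 to 15.5, 99 UMIs), with a relative log2 ratio of 0.18. The interval of that ratio, -0.26 to 0.62, includes 0.

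**Figure D1:**
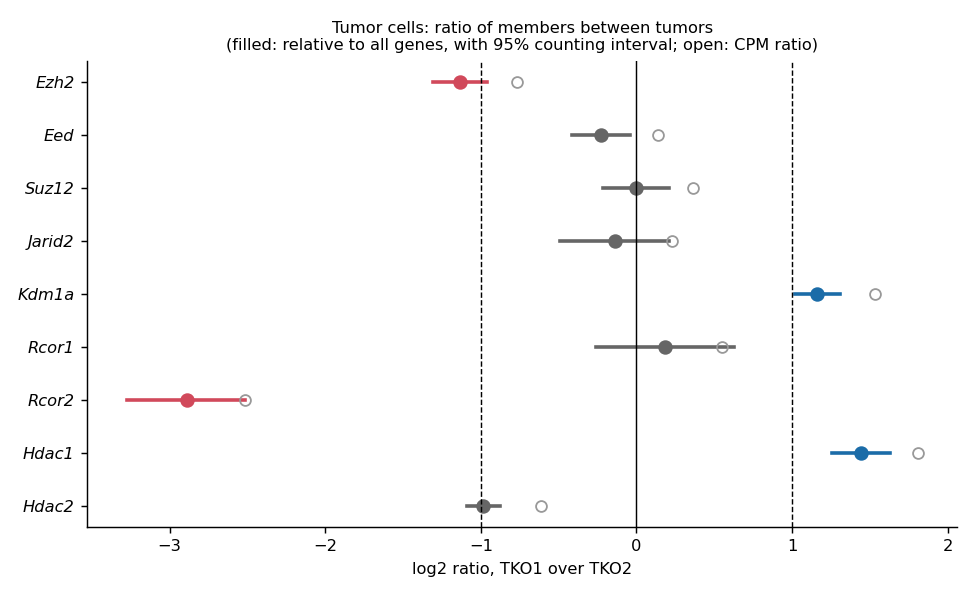
Log2 ratios of the 9 genes with at least 10 UMIs, TKO1 over TKO2, in tumor cells. Filled points are relative to the median of all genes with 95% counting intervals, open points are plain CPM ratios, and dashed lines mark 2-fold. *Kdm1a* and *Hdac1* lie beyond 2-fold toward TKO1, and *Ezh2* and *Rcor2* toward TKO2, *Rcor2* farthest at -2.89.

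*Rest* (ENSMUSG00000029249, chr5:77265491-77286432, plus strand) was at or near 0 in both tumors. The tumor cells of TKO1 held 0 UMIs of it, which allows up to 0.709 CPM at 3 UMIs, and those of TKO2 held 2 UMIs in 2 cells, or 0.258 CPM (0.0312 to 0.931). No order between the tumors can be read from these counts. *Rest* was detected in the other classes of the same libraries, described below.

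The share of cells with a UMI gave the same order of tumors at equal depth. After each cell was thinned to 1000 UMIs, which left 2151 tumor cells of TKO1 and 3020 of TKO2, *Kdm1a* was seen in 18.0% (exact Clopper-Pearson interval 16.4 to 19.7) against 7.05% (6.17 to 8.02) of cells. *Hdac1* was seen in 14.7% (13.2 to 16.3) against 4.30% (3.61 to 5.09), *Rcor2* in 1.49% (1.02 to 2.09) against 7.81% (6.88 to 8.83), and *Ezh2* in 7.76% (6.67 to 8.98) against 12.6% (11.5 to 13.9). *Hdac2* was seen in 19.3% (17.7 to 21.1) against 29.8% (28.2 to 31.5). Without thinning these 5 genes were seen in 21.7%, 19.7%, 1.91%, 9.70% and 25.3% of TKO1 cells and in 15.3%, 9.55%, 16.4%, 24.4% and 49.97% of TKO2 cells, at median depths of 1213 and 1983 UMIs. Thinned shares in the macrophage-like cells were 2.47% for *Kdm1a*, 6.17% for *Hdac1* and 11.1% for *Hdac2* in TKO1, and 0.893% for *Rcor2*, 6.25% for *Ezh2* and 10.7% for *Hdac2* in TKO2. The higher of the thinned shares of each gene in tumor cells exceeded its share in the macrophage-like cells of that tumor. *Rest* was seen in 0 of 2151 and 0 of 3020 thinned tumor cells, which allows shares of up to 0.139% and 0.0993% of cells with a UMI at this depth and does not limit the share of cells that express it.

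Other genes of the pathways were described from fixed lists. Of 7 further PRC2 subunits and partners, 3 were called higher in TKO1, 0 in TKO2, and 4 lay between, with a median relative log2 ratio of 0.29, where 23.2% and 18.7% of all genes were called in the same directions. *Ezh1*, the alternative catalytic subunit found mainly in resting cells, had 38.3 CPM in TKO1 and 5.67 CPM in TKO2, a relative log2 ratio of 2.39, opposite in direction to *Ezh2*. *Phf1* had 13.95 and 2.06 CPM and *Phf19* 5.68 and 1.16 CPM, from 16 and 9 UMIs in TKO2. The histone chaperones *Rbbp4* (286 and 181 CPM) and *Rbbp7* (394 and 290 CPM), *Aebp2* (53.0 and 40.6 CPM) and *Mtf2* (59.8 and 83.0 CPM) lay between.

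Of 18 genes of PRC1, the second Polycomb complex, *Cbx7* (20.3 and 5.28 CPM) and *Rybp* (22.7 and 6.70 CPM) were called higher in TKO1, *Pcgf6* (21.05 and 60.04 CPM) was called higher in TKO2, and 15 lay between, with a median of 0.20, against the same shares of all genes. Of the 2 demethylases that remove the PRC2 mark, *Kdm6b* had 39.7 and 12.6 CPM and was called higher in TKO1, and *Kdm6a* had 17.3 and 10.95 CPM and was not. None of the 11 LSD1-CoREST partners with at least 10 UMIs was called in either direction, nor was any of 8 Rest cofactors and splicing regulators of Rest, against the 23.2% and 18.7% of all genes. Among them, *Insm1*, a neuroendocrine factor that binds LSD1 and is also on the neuroendocrine marker list, had 125 and 119 CPM. *Srrm4*, which splices *Rest* into a form with little repressor activity, had 30.3 and 28.7 CPM, and its relative *Srrm3* had 49.0 and 28.6 CPM.

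Of 19 genes that REST is known to repress, 17 had a UMI in the tumor cells of TKO1 and 19 in those of TKO2. All 19 had at least 10 UMIs over both tumors, as did 12927 of all 27998 identifiers. Of the 19, 6 were called higher in TKO1, 6 higher in TKO2 and 7 lay between, with a median of -0.21, where 23.2% and 18.7% of all genes were called in these directions, and the excess over those shares was not tested. The granin genes *Chga* (910 and 96.5 CPM) and *Scg2* (201 and 35.3 CPM), the synaptic vesicle genes *Syp* (24.6 and 6.44 CPM) and *Syn1* (27.7 and 7.73 CPM), *L1cam* (14.9 and 4.77 CPM) and *Vgf* (16.8 and 6.18 CPM) were higher in TKO1. *Chga*, *Syp* and *Snap25* are also on the marker list that named the tumor cells, which fixes that they are expressed there but not in which tumor they are higher.

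Higher in TKO2 were the neuronal tubulin *Tubb3* (32.2 CPM in TKO1 and 263 CPM in TKO2), the glutamate receptor gene *Gria2* (1.66 and 21.8 CPM), *Stmn2*, *Bdnf*, *Cplx1* and *Calb1*. *Bdnf*, a neurotrophin, had 0 UMIs in TKO1 and 277 in TKO2, 50.3-fold higher when 3 UMIs are put in place of the count of 0. *Cplx1*, which encodes a regulator of vesicle release, had 0 and 225 UMIs, 40.9-fold higher on the same basis. *Stmn2*, a neuronal stathmin, had 2 and 525 UMIs, a log2 CPM ratio of -7.16 with -10.21 as its lower bound, and *Calb1* had 1 and 41 UMIs. Summed over the 19 genes, the tumor cells had 1821 CPM in TKO1, where 3846 of the 7698 UMIs were *Chga*, and 1015 CPM in TKO2. The same cells held 0 and 2 UMIs of *Rest*.

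Hox genes, which PRC2 keeps silent in cells that do not use them, were at 0 UMIs in the tumor cells of both libraries for 30 of 39 genes. Among all 27998 identifiers, 12927 had at least 10 UMIs over both tumors, and the share at 0 UMIs is not given here. No gene of the HoxC (9 genes) or HoxD cluster (9 genes) had a UMI, and of 11 HoxA genes 1 had a single UMI in TKO2. All 8 Hox genes with at least 10 UMIs were neighbours on the HoxB cluster, *Hoxb2* to *Hoxb9*, with 5335 UMIs in TKO1 and 7350 in TKO2, while *Hoxb1* and *Hoxb13* had 0. *Hoxb6* had 345 and 209 CPM and *Hoxb5* had 271 and 176 CPM, neither past 2-fold. *Hoxb2* was called higher in TKO1 (259 and 90.6 CPM), and *Hoxb7* (91.8 and 165 CPM) and *Hoxb9* (21.3 and 85.9 CPM) were called higher in TKO2. *Hoxb6* had 49.5 CPM in the macrophage-like cells of TKO1, 53.3 CPM in those of TKO2 and 55.9 CPM in the club-like cells, from 7, 12 and 11 UMIs. Each of these levels of *Hoxb6* is under the free RNA yardstick described below and is read as background. Not every HoxB gene lay under it. *Hoxb5* had 107 CPM (66.1 to 163, 21 UMIs) in the club-like cells, above the yardstick for its 271 CPM in the tumor cells of TKO1.

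**Figure D2:**
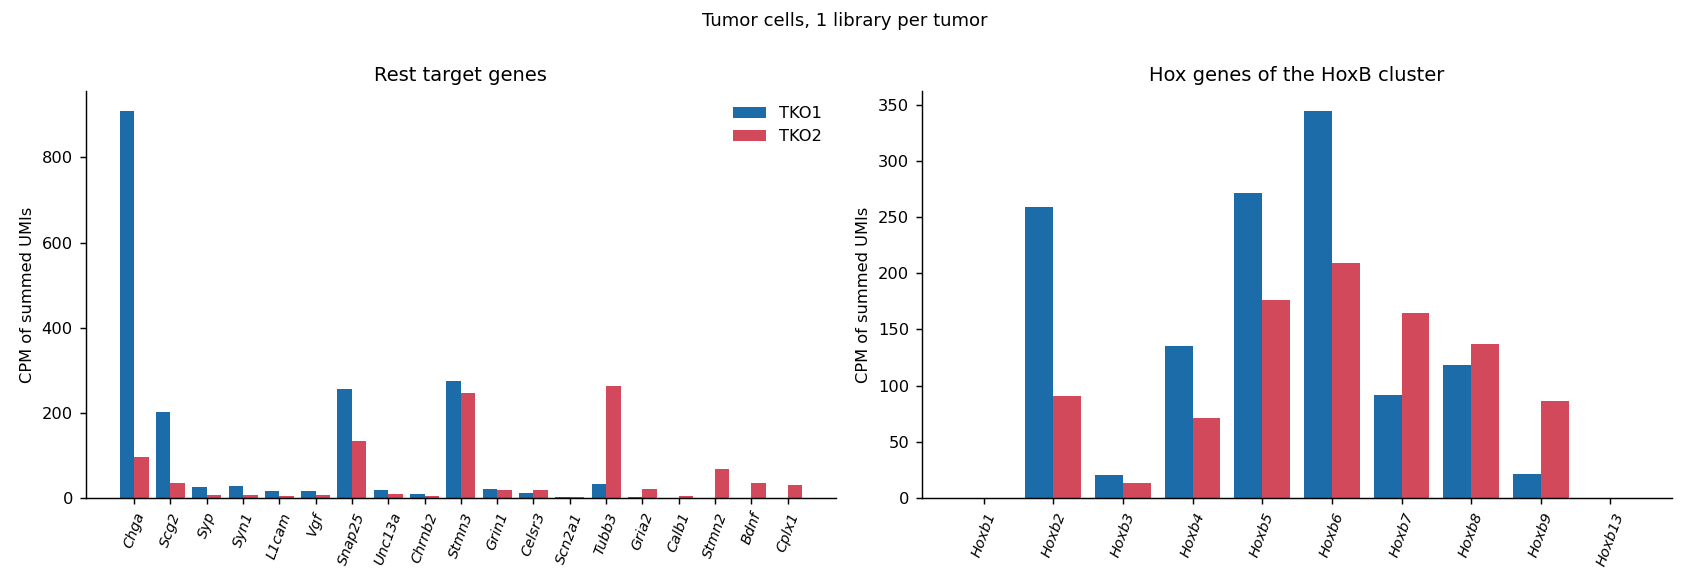
CPM of 19 genes repressed by REST (left, ordered by their ratio) and of the 10 HoxB genes (right, in cluster order) in the tumor cells of TKO1 and TKO2; bars are single libraries without a replicate error. *Chga* reaches 910 CPM in TKO1, *Tubb3* 263 CPM in TKO2, and *Hoxb2* to *Hoxb9* are present in both tumors while *Hoxb1* and *Hoxb13* are at 0.

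Between cell types, *Rest* was detected outside the tumor cells. Of the other 9 genes most had lower CPM there, as did the median gene, with the limit given below. The exceptions by CPM were *Rcor1* and *Eed* in macrophage-like cells of TKO1, *Jarid2* in those of TKO2 and *Rcor1* in club-like cells. Droplets can carry free RNA of other cells, so the neuroendocrine markers with at least 100 UMIs in the tumor cells serve as a yardstick for the other classes. In the macrophage-like cells 14 such markers had a median of 24.4% of their tumor cell level in TKO1 (11.4 to 115) and 12 had 30.2% in TKO2 (18.4 to 418). In the club-like cells 14 had 29.2% (0 to 44.7). A level of a gene at or below those percentages is read as background. A level above them can still be free RNA, because each yardstick is a median and single markers lie above it. The median gene had log2 CPM ratios to the tumor cells of -0.83 in the macrophage-like cells of TKO1, -0.62 in those of TKO2 and -0.81 in the club-like cells, and these medians were subtracted on the relative scale. Genes with 0 UMIs in a small class count as lowest in these medians. That lowers the medians and raises the relative ratios, by an amount that was not tested.

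*Rest* had 9 UMIs in 9 of 105 club-like cells, or 45.8 CPM (20.9 to 86.9). That value was 64.5-fold above a limit of 3 UMIs put in place of the count of 0 in the tumor cells of TKO1. The interval of this log2 CPM ratio began at 5.41. In the macrophage-like cells *Rest* had 2 UMIs (14.1 CPM, 1.71 to 51.1) in TKO1 and 5 UMIs (22.2 CPM, 7.21 to 51.8) in TKO2, the latter with a log2 ratio of 6.43 (3.82 to 9.82) to the tumor cells. All these *Rest* counts are under the minimum of 10 UMIs used for calls. The thinned share of cells with a *Rest* UMI was 5.49% (1.81 to 12.4, 5 of 91) in the club-like cells, and the intervals of the 3 classes overlap. The yardstick does not apply to *Rest*, because the tumor cells hold 0 and 2 UMIs of it.

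In TKO1, *Kdm1a* was near background outside the tumor cells. It had 42.4 CPM (15.6 to 92.3, 6 UMIs) in the macrophage-like and 50.8 CPM (24.4 to 93.5, 10 UMIs) in the club-like cells, 17.9% and 21.4% of the tumor cell level, both under the yardstick. In TKO2 the macrophage-like cells had 57.7 CPM (30.7 to 98.7, 13 UMIs), 70.2% of the lower tumor cell level there. *Rcor2* had 0 UMIs in the club-like cells and 1 and 5 UMIs in the macrophage-like cells of TKO1 and TKO2, the last 25.2% of the tumor cell level and under the yardstick. *Suz12* had 3 and 4 UMIs in the macrophage-like cells, 28.7% and 31.0% of the tumor cell level, and *Hdac2* had 14 and 23 UMIs, 42.0% and 28.3%, the latter under the yardstick of TKO2.

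*Ezh2* was seen in the macrophage-like cells at 63.6 CPM (29.1 to 121, 9 UMIs) in TKO1 and 84.3 CPM (50.8 to 132, 19 UMIs) in TKO2, 74.9% and 58.4% of the tumor cell level. Both are above the yardstick of each tumor but within the range of its markers, so free RNA cannot be told apart from expression here. *Eed* had 14 and 9 UMIs there, 108% and 48.2%. *Rcor1* was the gene of the group with the highest ratio in the macrophage-like cells of TKO1, with 7 UMIs, 49.5 CPM (19.9 to 102) and 265% of the tumor cell level, but 2 UMIs and 69.6% in TKO2. *Jarid2* had 0 UMIs in the macrophage-like cells of TKO1 and 8 in those of TKO2, where it was 156% of the tumor cell level. For each of the 10 genes the intervals of the macrophage-like cells of both tumors and the club-like cells overlap. The log2 CPM ratio of the macrophage-like cells, TKO1 over TKO2, had an interval of 0.09 to 5.78 for *Rcor1* and an upper end of -0.10 for *Jarid2*. Both rest on fewer than 10 UMIs, and the intervals of the other genes included 0.

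On the relative scale, 1 of 9 genes was called higher (*Rcor1*) and 1 lower (*Kdm1a*) in the macrophage-like cells of TKO1, against 25.5% and 8.57% of all genes (20.1% and 13.1% of those with at least 50 UMIs). In those of TKO2, *Jarid2* was called higher and *Suz12*, *Rcor2* and *Hdac2* lower, against 24.7% and 8.69% (19.3% and 11.7%). In the club-like cells *Rcor1* was called higher from 5 UMIs and *Kdm1a* lower, against 20.1% and 8.14% (14.7% and 12.0% with at least 50 UMIs). Counting error alone covers some of these calls. The intervals of the relative log2 ratio include 0 for *Rcor1* in the club-like cells (-0.41 to 2.54) and for *Suz12* in TKO2 (-2.95 to 0.30). For *Jarid2* in TKO2 the interval by CPM does (-0.60 to 1.65). In cells with more than 1000 detected genes, which left 25 and 46 macrophage-like cells, *Rcor2* in TKO2 was the single call that held. No club-like cluster could be named in those cells or in cells with more than 200 detected genes.

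In macrophage-like cells, 5 genes of the group had at least 10 UMIs over both tumors. *Eed* was called higher in TKO1, from 14 and 9 UMIs, with an interval of the relative log2 ratio of -0.01 to 2.69, and 13.4% of 4733 genes were called in that direction and 13.8% in the other (4.73% and 6.67% of those with at least 50 UMIs). *Hdac2*, at 236 CPM in TKO1 and 361 CPM in TKO2 in the tumor cells, had 98.9 CPM (54.1 to 166) and 102 CPM (64.7 to 153) here. The interval of its log2 CPM ratio, -1.12 to 0.97, includes both 0 and the -0.62 of the tumor cells. *Hdac1* had 49.5 CPM (19.9 to 102) and 35.5 CPM (15.3 to 69.98), and the interval of its log2 CPM ratio, -1.22 to 2.14, includes both 0 and the 1.81 of the tumor cells.

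**Figure D3:**
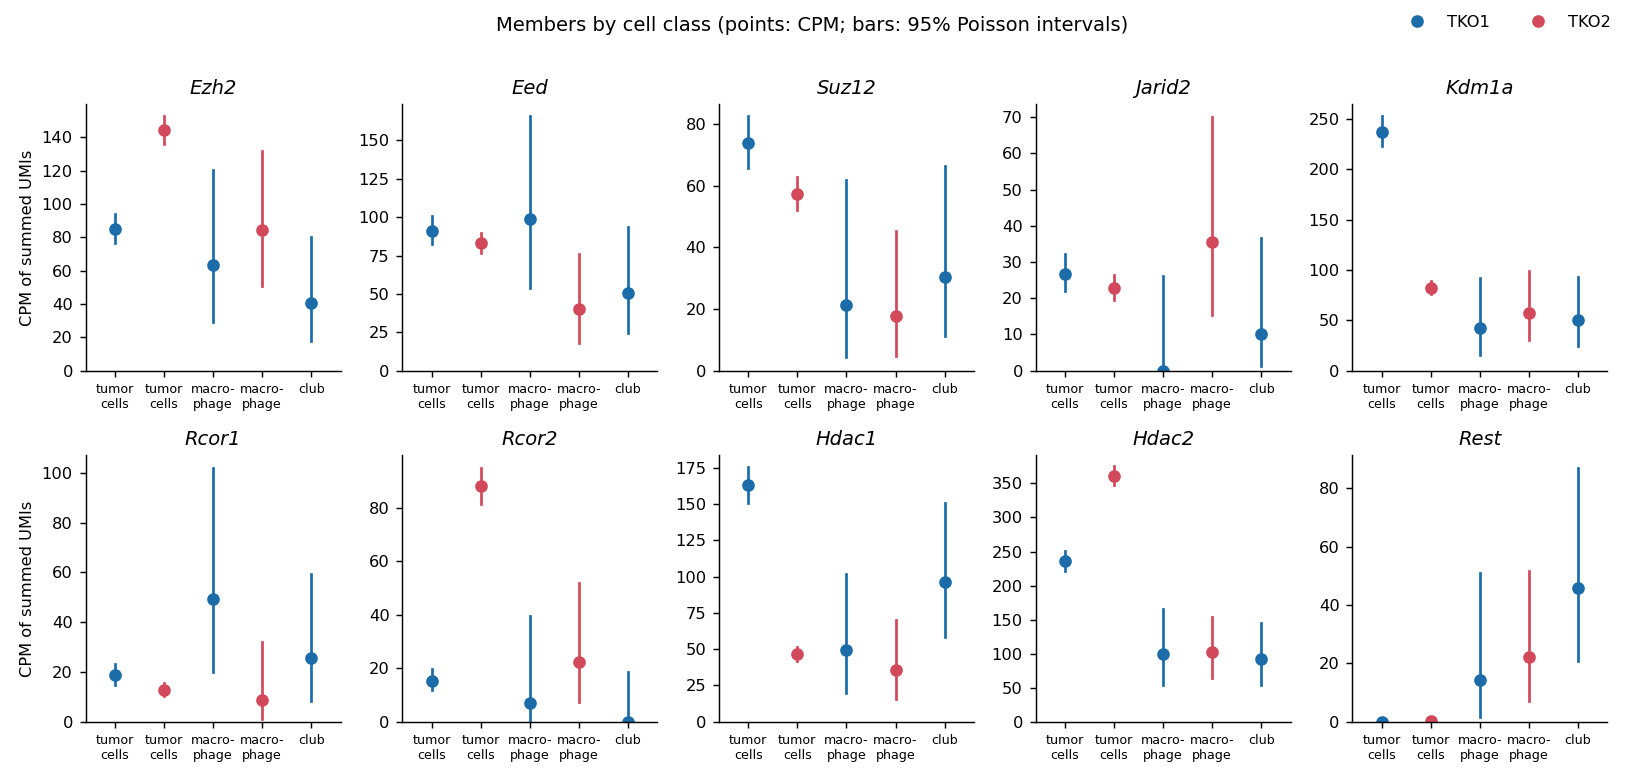
CPM of the 10 genes in tumor cells, macrophage-like cells and club-like cells of TKO1 (blue) and TKO2 (red), with exact Poisson 95% intervals. The club-like and macrophage-like points of *Rest* lie between 14.1 and 45.8 CPM while its tumor cell points are at 0 and 0.258 CPM; the wide bars of the small classes rest on 0 to 23 UMIs.

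Cycling state was read from 37 S-phase and 42 G2/M genes, none of them in the group. Thinned tumor cells were classed as G2/M-high with at least 3 G2/M UMIs, S-high with at least 3 S UMIs and fewer G2/M UMIs, low with 0 G2/M UMIs and at most 1 S UMI, and intermediate otherwise. TKO1 had 422 low, 630 intermediate, 625 S-high and 474 G2/M-high cells, and TKO2 had 161, 424, 866 and 1569. The classes are ranges of a count and not cell types, and 43.1% of cells in TKO1 and 41.6% in TKO2 had 2 or 3 UMIs of the S or the G2/M list, at or just under the cut of 3. The low class has closer limits of its own, since 1 G2/M UMI takes a cell out of it. The proliferation gene *Mki67*, which is on the G2/M list, had 3.16 CPM in the low and 301 CPM in the G2/M-high cells of TKO1.

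*Ezh2* was lowest in low cells of TKO1 and highest in G2/M-high cells of both tumors. In TKO1 it had 28.4 CPM (16.8 to 44.9, 18 UMIs) in low cells, 66.0 CPM in intermediate, 80.3 CPM (63.6 to 99.9) in S-high and 164 CPM (139 to 192, 149 UMIs) in G2/M-high cells. G2/M-high over low cells gave 5.77-fold, a log2 ratio of 2.53 (1.82 to 3.32). In TKO2 it had 99.5 CPM (68.5 to 140, 33 UMIs) in low, 95.4 CPM in intermediate, 126 CPM (110 to 143) in S-high and 167 CPM (155 to 180) in G2/M-high cells, 1.68-fold and a log2 ratio of 0.75 (0.24 to 1.30). By CPM, the G2/M-high cells of the tumors thus had overlapping intervals, 164 against 167 CPM. The low cells had 28.4 against 99.5 CPM, with intervals that did not overlap. These levels are not on the relative scale, which was not computed between the tumors within a cycling class. Over all tumor cells the median gene was 0.37 higher in TKO1 in log2 CPM, so the overlap may depend on the scale. The low classes were not matched in cycling. They had means of 0.54 and 0.63 S UMIs in TKO1 and TKO2, and 7.89 and 30.2 CPM of the S gene *Mcm5*. The G2/M genes *Mki67* (3.16 and 0 CPM) and *Top2a* (6.31 and 6.03 CPM) were not higher in TKO2.

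*Suz12* was also higher in G2/M-high cells in both tumors. It had 56.8 CPM (39.8 to 78.6) in low and 95.7 CPM (76.7 to 118) in G2/M-high cells of TKO1, a log2 ratio of 0.75 (0.18 to 1.36). In TKO2 it had 24.1 CPM (10.4 to 47.5, 8 UMIs) and 67.3 CPM (59.8 to 75.5), a log2 ratio of 1.48 (0.48 to 2.71). *Eed* had 69.4 and 108 CPM in TKO1 (0.64, 0.11 to 1.18) and 60.3 and 85.6 CPM in TKO2 (0.50, -0.14 to 1.23). *Jarid2*, in contrast, had 31.6 and 23.1 CPM in TKO1 and 15.1 and 24.2 CPM in TKO2, with intervals of both ratios that include 0.

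Among the LSD1-CoREST genes, *Kdm1a* and *Rcor2* were higher in the cycling classes of TKO1. In TKO2 their ratios of G2/M-high over low cells were below 0 with the settings above, with intervals that include 0. The difference between the tumors was not tested. *Kdm1a* had 177 CPM (146 to 213), 202 CPM, 244 CPM (214 to 276) and 327 CPM (291 to 366) in the low, intermediate, S-high and G2/M-high cells of TKO1, a log2 ratio of 0.89 (0.57 to 1.21). In TKO2 the same classes had 112 CPM (78.6 to 154), 56.3 CPM, 68.3 CPM (57.1 to 81.1) and 89.3 CPM (80.6 to 98.6), a log2 ratio of -0.32 (-0.81 to 0.21). The TKO2 value was 0.14 with another thinning seed and 0.35 without the cells of highest doublet score. Thinning to 2000 UMIs gave 0.63 (-1.85 to 5.94), so the direction of the TKO2 value was not stable.

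*Rcor2* had 5 UMIs in low cells of TKO1 (7.89 CPM, 2.56 to 18.4) and 28 in G2/M-high cells (30.8 CPM, 20.5 to 44.5), a log2 ratio of 1.97 (0.57 to 3.69), and another thinning seed, with 1 UMI in the low class, gave 4.54 (1.96 to 9.88), while thinning to 2000 UMIs gave 0.84 (-1.83 to 6.23). In TKO2 it had 109 CPM (76.0 to 150) and 85.3 CPM (76.9 to 94.5), a log2 ratio of -0.35 (-0.84 to 0.19). *Hdac1* had 142 and 204 CPM in TKO1 (0.52, 0.15 to 0.90) and 33.2 and 47.3 CPM in TKO2 (0.51, -0.36 to 1.54). *Hdac2* had 196 and 272 CPM in TKO1 (0.47, 0.16 to 0.80) and 332 and 371 CPM in TKO2 (0.16, -0.12 to 0.45). *Rcor1* had 10 and 22 UMIs in TKO1 and 6 and 58 in TKO2, with intervals that include 0, and *Rest* had 0 UMIs in every class but 1 UMI in G2/M-high cells of TKO2.

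On the relative scale *Ezh2* and *Rcor2* were called higher in G2/M-high than in low cells of TKO1, against 11.4% of all genes called higher and 7.55% lower (7.31% and 2.87% of genes with at least 50 UMIs). *Suz12* was called higher in TKO2, against 9.38% and 8.35% (10.6% and 3.87%). *Ezh2* and *Rcor2* were also called higher in S-high cells of TKO1, against 7.36% and 4.87% of all genes (2.52% and 0.954% with at least 50 UMIs). The log2 CPM ratio was 1.499 (0.75 to 2.32) for *Ezh2* and 1.19 (-0.29 to 2.98) for *Rcor2*, whose interval includes 0 and whose value at a cut of 2 UMIs was 0.73. *Suz12* was called higher in S-high cells of TKO2, with 1.18 (0.15 to 2.43), against 8.63% and 5.94% (4.20% and 1.16%), and was not called there at a cut of 2 UMIs. No gene of the group was called lower in these 4 comparisons. Of the further PRC2 genes, *Mtf2*, a subunit that helps PRC2 bind DNA, was called higher in G2/M-high cells of both tumors, with 41.0 and 89.1 CPM in TKO1 and 33.2 and 98.7 CPM in TKO2. *Ezh1* had 48.9 and 27.5 CPM in the low and G2/M-high cells of TKO1, a log2 ratio of -0.83 (-1.65 to -0.02).

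**Figure D4:**
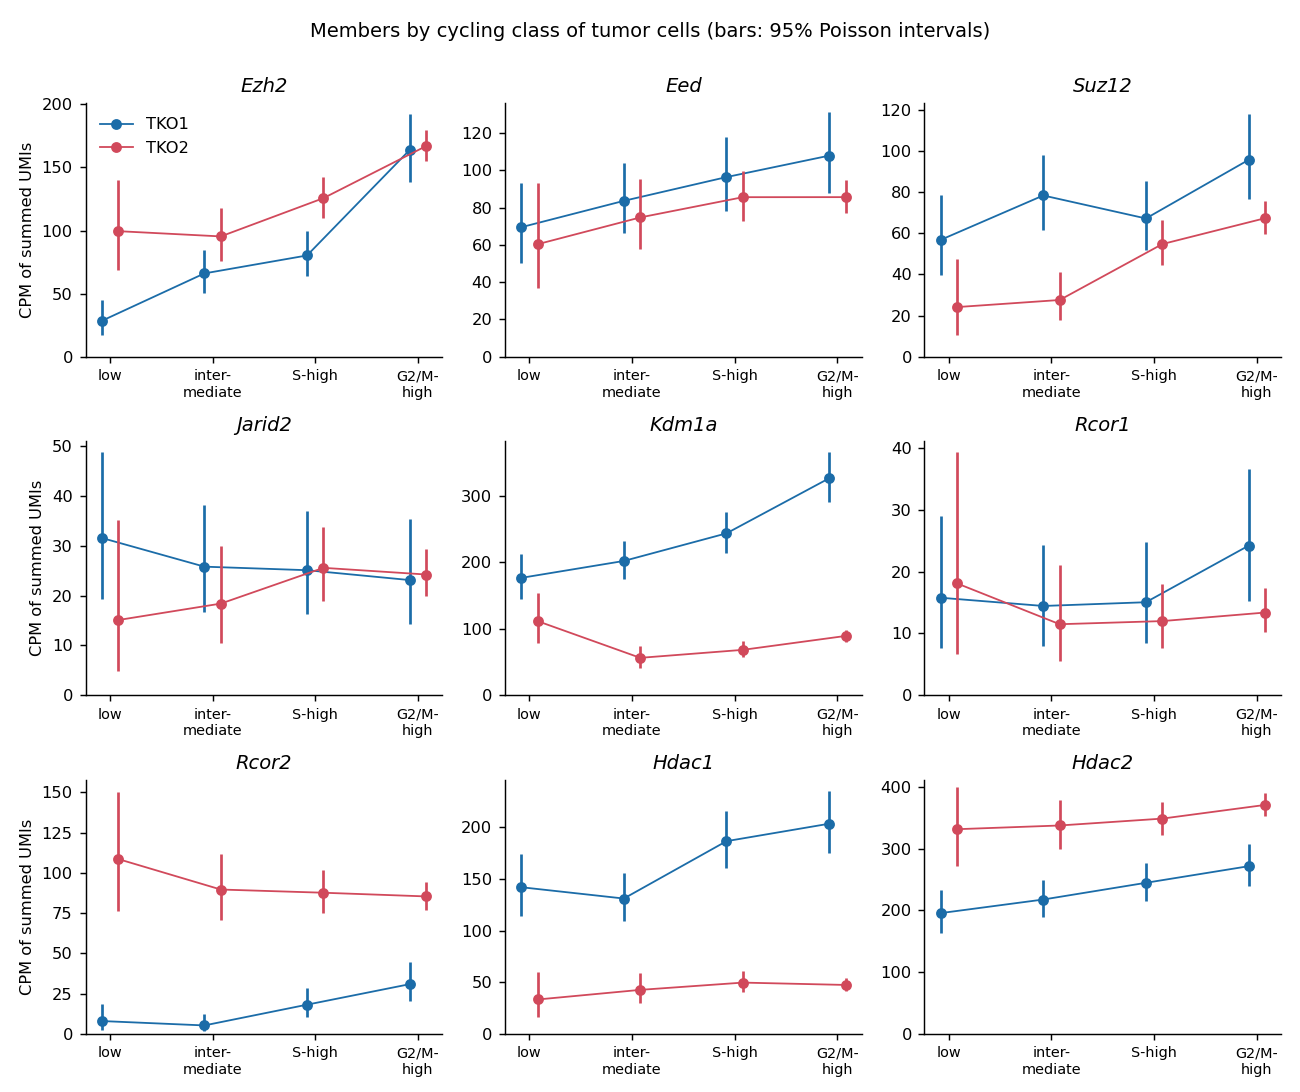
CPM of 9 genes in the 4 cycling classes of tumor cells, TKO1 in blue and TKO2 in red, with exact Poisson 95% intervals; *Rest* is left out because it had 1 UMI over all classes. *Ezh2* goes from 28.4 CPM in low to 164 CPM in G2/M-high cells in TKO1 and from 99.5 to 167 CPM in TKO2, and *Kdm1a* reaches 327 CPM in the G2/M-high cells of TKO1.

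Across the 8 tumor cell clusters of each library, which were formed without these genes, *Ezh2* ranged from 28.1 to 180 CPM in TKO1 and from 74.3 to 213 CPM in TKO2. In TKO1 it was highest in cluster 6, led by genes such as *Clspn* of the S-phase list, and in the mitotic cluster 5 (165 CPM), where the S and G2/M lists summed to 8776 and 21794 CPM against 1769 to 5277 CPM in the other 6 clusters. *Kdm1a* ranged from 165 to 422 CPM in TKO1 and from 55.0 to 112 CPM in TKO2, so that its lowest cluster in TKO1 was above its highest in TKO2. *Hdac1* showed the same order, with 133 to 230 CPM and 29.0 to 71.2 CPM, and *Hdac2* ranged from 187 to 307 CPM and from 297 to 417 CPM. *Rcor2* ranged from 5.62 to 41.3 CPM in TKO1 and from 39.7 to 129 CPM in TKO2.

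The cluster highest in *Kdm1a* in TKO1 was not the one highest in *Ezh2*, while the mitotic cluster 5 came next for both genes. Cluster 7 (231 cells, led by *Nefm*, *Neurog3* and *Nefl*) had 422 CPM of *Kdm1a* (356 to 497) and 88.5 CPM of *Ezh2* (59.7 to 126). The mitotic cluster 5 had 399 CPM of *Kdm1a* (350 to 452). Cluster 6, highest in *Ezh2*, had 177 CPM of *Kdm1a* (142 to 219). *Rcor2* was also highest in cluster 7, with 41.3 CPM (22.6 to 69.3, 14 UMIs), and next in cluster 5, with 29.4 CPM (17.4 to 46.5, 18 UMIs). *Hdac1* was lowest in cluster 7, with 133 CPM (96.8 to 178). Without cluster 7 the log2 ratio of *Kdm1a* between G2/M-high and low cells of TKO1 was 0.85.

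**Figure D5:**
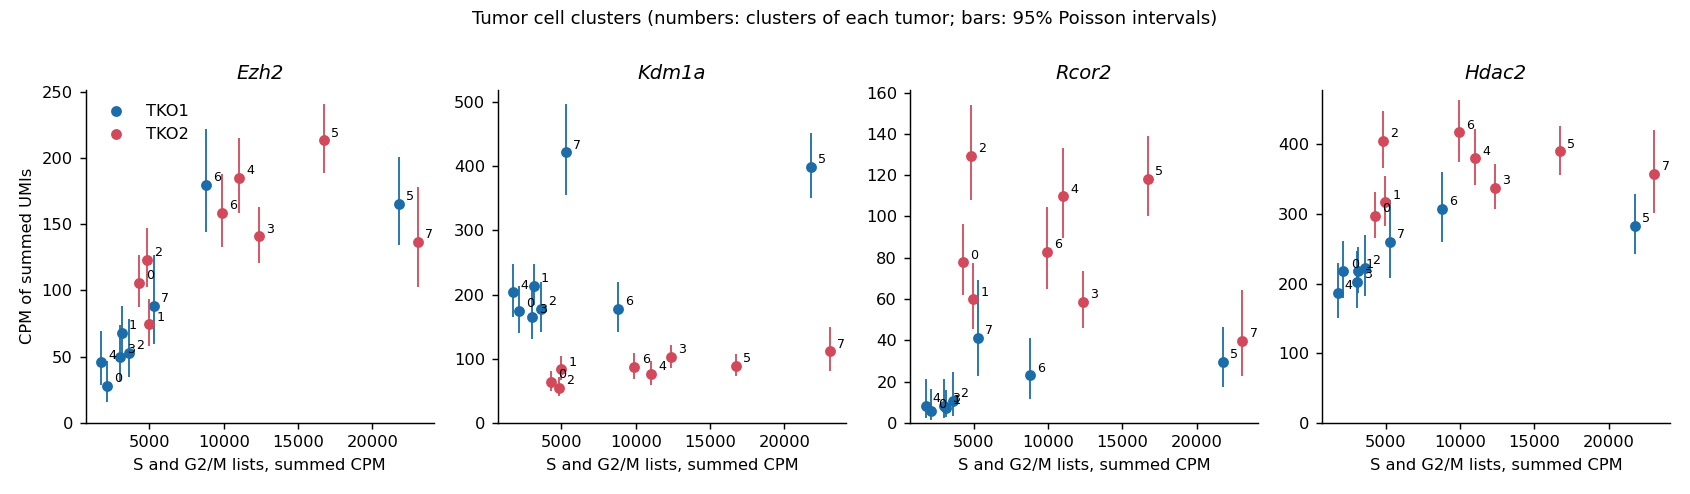
CPM of *Ezh2*, *Kdm1a*, *Rcor2* and *Hdac2* in each tumor cell cluster (numbered points, TKO1 blue, TKO2 red, 95% Poisson intervals) against the summed CPM of the S and G2/M lists. *Ezh2* in TKO1 is highest in clusters 6 and 5, with list sums of 8776 and 21794 CPM, while *Kdm1a* stands at 422 CPM in cluster 7 of TKO1, where those lists sum to 5277 CPM.

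*Kdm1a* UMIs of TKO1 were unevenly spread over cells. Of 2991 tumor cells, 649 had at least 1 UMI, and 19 had 5 or more, which together held 120 of the 1004 UMIs (11.95%). Of these 19 cells, 12 were in cluster 5 and 5 in cluster 7, and the highest had 14 UMIs. In TKO2, 517 of 3382 cells had a UMI and 1 had 5. The ratio of variance to mean after thinning was 1.42 in TKO1, where the median of 3544 genes was 1.17 and 92.2% were lower, and 1.11 in TKO2. *Kdm1a* was the only gene of the group among the 1000 most variable genes in TKO1, and *Jarid2*, with 9 UMIs in a single cell, was the only one in TKO2.

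The genes whose levels were most like those of the group over the 16 clusters were found by Pearson's r of log2(CPM + 10), after the mean of each tumor was subtracted, among 3349 genes. The clusters of a tumor share a library and their depth, so r is a description. For *Ezh2* these were *Rrm2*, *Actl6a*, *Tuba1b*, *Nt5dc2* and *Anp32b*, with r from 0.93 to 0.92, of which *Rrm2* is on the S-phase list. For *Hdac2* they were *Fam96a*, *Mbd3*, *Tubb5*, *Aimp2* and *Rrm2* (0.95 to 0.88). For *Rcor2* they were *Serbp1*, *U2af1*, *Eif4a1*, *Eif5a* and *C1qbp* (0.94 to 0.89), and for *Kdm1a* they were *Prrc2a*, *Macf1*, *Fkbp2*, *Sypl* and *Pcbp2* (0.87 to 0.82). Within the group, *Ezh2* was most like *Hdac2*, with r of 0.82, and the r of *Kdm1a* and *Rcor2* was 0.81 over the clusters of TKO1 and -0.70 over those of TKO2.

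Genes near the members on the chromosome moved with some of them. Within 2 Mb of *Kdm1a*, 51 genes had a median relative log2 ratio between the tumors of 0.61, and within 2 Mb of *Hdac1*, 44 genes had 0.47, both in the direction of TKO1. The 342 genes of chromosome 4 with at least 20 CPM in both tumors had a median of 0.15. Around *Rcor2*, 113 genes had a median of -0.71, and the 141 genes of chromosome 19 with at least 20 CPM in both tumors had a median of -0.66, in the direction of TKO2. These shifts are smaller than those of the members themselves, 1.16, 1.44 and -2.89, and their part in the differences was not tested. Around *Ezh2* the median of 24 genes was -0.01. Neighbours of *Hdac2* (2 genes, 0.70) and *Jarid2* (16 genes, 0.36) went against their members, at -0.98 and -0.14. Those of *Eed* (11 genes) had -0.41, of *Suz12* (44 genes) -0.30 and of *Rcor1* (43 genes) 0.01, with members at -0.23, -0.00 and 0.18. In cluster 7 of TKO1, where *Kdm1a* was 1.15 above the other tumor cells on the relative log2 scale, its 47 neighbours had a median of -0.21. In cluster 5 *Kdm1a* was 1.00 above and the neighbours had 0.14.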

How the data were processed

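Single-cell libraries were made by the authors from 1 tumor of each of 2 TKO mice. For every barcode and gene, the authors deposited an unnormalized UMI count. Their processing notes name Cell Ranger, Seurat and mm10; versions and the annotation are not given in the sources used here. Read processing, which decides how UMIs near shared sequence are assigned, was not repeated.

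Barcodes with more than 500 detected genes and under 10% mitochondrial UMIs were retained. Each tumor was clustered with Seurat 5.3.0 in R 4.3.3, following the study's methods (1000 variable genes, 10 principal components) at resolution 0.8, with the 10 genes removed from the variable genes. A cluster was named from at least 3 markers that were 4-fold (neuroendocrine: 2-fold over macrophages) higher. Doublets were scored with Scrublet in scanpy 1.11.5, which called 0 cells and so did not separate doublets; an alternative leaves out the top 5% of scores (151 and 136 cells). UMIs were summed per class. CPM, Poisson, Clopper-Pearson and conditional binomial intervals were computed with scipy 1.17.1, and TMM factors with edgeR 4.0.16. With 1 library per tumor no test was run; precision is set by the counts printed. Alternatives changed the gene minimum, scaling, doublet removal, cluster resolution and naming, thinning and cycling cuts; leaving out TKO1 clusters 3 and 4, or 7, was added after seeing the data. Steps were tested on simulated data.

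The genes named are the 10 members, genes of fixed lists, the 5 most similar genes for *Ezh2*, *Kdm1a*, *Rcor2* and *Hdac2*, and genes that lead a cluster. Positions came from GENCODE M21 and promoters from RefSeq (GRCm38.p6). The members and lists were chosen with earlier results of these data known.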

Additional observations from a re-analysis of the deposited data

Results flagged for a closer look

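With the settings above, the cycling contrast had opposite signs in the 2 tumors for *Kdm1a* and *Rcor2*. The difference between the tumors was not tested, since each is 1 library. The log2 CPM ratio of *Kdm1a* in S-high over low cells was 0.46 (0.14 to 0.80) in TKO1 and -0.71 (-1.24 to -0.14) in TKO2. In G2/M-high over low cells it was 0.89 (0.57 to 1.21) in TKO1 and -0.32 (-0.81 to 0.21) in TKO2. For *Rcor2* in G2/M-high over low cells it was 1.97 (0.57 to 3.69) in TKO1 and -0.35 (-0.84 to 0.19) in TKO2. The low class of TKO2 held 161 cells and 37 UMIs of *Kdm1a*. Without the cells of highest doublet score, the TKO2 values of *Kdm1a* were 0.03 in S-high and 0.35 in G2/M-high cells. With another thinning seed they were -0.25 and 0.14. Thinning to 2000 UMIs gave 0.10 and 0.63, from 1 UMI of *Kdm1a* in the low class, so the sign in TKO2 was not stable. In TKO1 the *Kdm1a* values ran from 0.29 to 0.65 and from 0.76 to 1.32 over all alternatives.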

How the results depend on the processing

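Values recomputed under alternatives were ratios of single genes, counted apart by CPM and on the relative scale, shares of cells, and percents of all genes called. Of these, 1025 stayed, 78 moved and 3 ratios that had been called changed sign. Some could not move: a change of scaling leaves relative ratios and calls as they are, and a change of the UMI minimum leaves CPM ratios as they are. Those are counted among the values that stayed. A ratio or share stayed if it lay within its 95% interval, and a percent of all genes if it was near its value. Of the counts of called genes and of *Rest* UMIs, 97 stayed near their value and 25 moved. Between the tumors, the 2 genes called higher in TKO1 held in every alternative run, and the 2 called higher in TKO2 became 1 (*Rcor2*) in cells with more than 1000 detected genes and 1 without TKO1 clusters 3 and 4, chosen after seeing the data. With more than 1000 detected genes, 564 cells of TKO2 were left unnamed and are not among its tumor cells. *Rcor2* ran from -2.96 to -2.54, *Hdac1* from 1.38 to 1.52 and *Kdm1a* from 1.09 to 1.27 on the relative scale. TMM factors gave plain log2 ratios of -1.12 for *Ezh2*, 1.18 for *Kdm1a* and 1.46 for *Hdac1*. *Rest* had 3 and 4 UMIs in cells with more than 200 genes (TKO1, TKO2) and 1 in TKO2 cells with more than 1000. In cells with more than 1000 genes, the macrophage-like calls became 0 higher and 0 lower in TKO1 and 0 and 1 in TKO2, and in TKO2 *Suz12* (relative log2 ratio 0.20) and *Jarid2* (-0.44 by CPM, -0.22 relative) changed sign. In TKO1, 2 genes were lower with more than 200 genes and 3 without the top doublet scores. In S-high cells, 1 gene was called higher in TKO1 with classes cut at 2 UMIs or thinning to 2000 UMIs, and in TKO2 0 at a cut of 2, 2 higher and 1 lower with seed 2, 0 higher and 5 lower at 2000 UMIs, and 0 and 1 without the top doublet scores. In G2/M-high cells, 1 gene was called lower in TKO1 at 2000 UMIs and without the top doublet scores, and in TKO2 2 were called higher with seed 2 and 0 higher and 5 lower at 2000 UMIs, where the low class held 17060 UMIs. The cause of these changes was not tested. No paired analysis was possible because each tumor is 1 library and no test was run. The 0 to 23 UMIs per gene in the small classes limit what can be detected there.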

Other observations

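No ratio relative to all genes was computed for the unnamed cluster of 65 cells in TKO2, where 9 club markers summed to 63437 CPM. By CPM, this cluster differed from the tumor cells of its own library in several genes. It had 5 UMIs of *Ezh2* (42.1 CPM, 13.7 to 98.2, against 144 CPM in the tumor cells), 2 UMIs of *Rcor2* (16.8 CPM, 2.04 to 60.8, against 88.0 CPM), and 25 UMIs of *Hdac2* (210 CPM, 136 to 310, against 361 CPM). *Eed* had 13 UMIs (109 CPM, 58.2 to 187) and *Rest* had 1. The neuropeptide gene *Calca* had 3895 CPM there and 463 UMIs, and *Resp18*, a granule gene, had 1498 CPM, against 18.0 and 6.70 CPM in the tumor cells and 75.5 and 31.1 CPM in the macrophage-like cells of the same library. None of its 65 barcodes was shared with TKO1. The 19 genes repressed by REST summed to 1262 CPM in this cluster, from 150 UMIs, and *Tubb3* had 84.1 CPM from 10 UMIs.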
